A study of Mus musculus with 12 samples.

Results

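Activin subunits, a TGF-beta ligand, a BMP receptor and the proteins that hold these signals in check were followed in myelinating oligodendrocytes sorted from KO and WT mouse brains. The set holds 7 genes of the 2398 in the table analysed here: the activin and inhibin subunits Inhbb and Inha, the ligand Tgfb2, the receptor Bmpr2, the secreted antagonist Fstl3, the membrane protein Tmeff2 and the receptor-associated protein Tgfbrap1. They were found by Entrez Gene identifier, and all 7 were present. Every gene of the table that matched a symbol lies on chromosome 1 (1358 genes) or 10 (868 genes), so counts, ranks and CPM values below refer to these genes and not to the whole transcriptome. The set was chosen by gene family with values of these data in view, among them the low count of Inhbb, the abundance of Tmeff2 and the differences between KO and WT, so the members' differences are given as a description and without a p-value.

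Cells were GFP-positive and excluded propidium iodide, a dye of dead cells, and came from C57BL/6 mice with the Ndrg1-EGFP reporter of myelinating oligodendrocytes. KO mice were CnpCre/+;Lmnafl/fl, with Cre recombinase expressed from an allele of the oligodendrocyte gene Cnp, and WT mice were Cnp+/+;Lmnafl/fl. All mice thus carried floxed Lmna, the gene of lamins A and C. Besides Lmna, KO mice differ from WT mice in carrying Cre and in having 1 Cnp copy taken up by it. The labels give an age of 60 postnatal days in one field and 8 weeks in another. Each genotype had 3 biological replicates with 2 libraries each, and the libraries of a replicate were summed (n = 3). The labels do not say how many animals stand behind a replicate. Lmna and Cnp were not analysed here, so the loss of Lmna was not checked. Counts in the genes of the table ranged from 3694551 to 6093336 per replicate, which is part of a library and not its depth. Of the mature oligodendrocyte markers listed, only 2 of 19 were in the table, Adamts4 and Nfasc. They summed to 14841 to 17096 CPM in KO and 10318 to 11903 CPM in WT. CPM here is a gene's count for each 1000000 counts in the genes of the table, scaled by TMM factors.

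Ligands of the TGF-beta family are secreted dimers that bring together type I and type II receptor kinases, which pass the signal to Smad proteins. Activins are dimers of inhibin beta subunits, and a beta subunit paired with the inhibin alpha subunit makes inhibin, which opposes activin. Follistatin-type proteins bind ligands outside the cell. In mice, signalling through activin receptors has been tied to the maturation of oligodendrocytes and to remyelination.

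The promoters of 3 members are shown as a description: Inhbb, whose KO and WT values did not overlap, Tgfb2, the other ligand gene, and Tmeff2, the most abundant member. They come from RefSeq on GRCm38.p6 and span 300 bases on the strand of the gene, from 250 before to 50 after the start that the table lists. Capitals mark CAGAC, the core of Smad binding elements, the TATA-box sequence TATAAA and the GC-box sequence GGGCGG on either strand. A match on the opposite strand is capitalised as its reverse complement, such as CCGCCC for the GC box. No marked match overlaps another. The windows lie at chr1:119422199-119422498 on the minus strand for Inhbb, at chr1:186705940-186706239 on the minus strand for Tgfb2 and at chr1:50927273-50927572 on the plus strand for Tmeff2. Those of Tgfb2 and Tmeff2 lie inside the gene spans given below, not at their outer ends. The GENCODE M21 annotation lists 6 transcripts of Tgfb2 and 4 of Tmeff2, and other starts are not shown.
Inhbb: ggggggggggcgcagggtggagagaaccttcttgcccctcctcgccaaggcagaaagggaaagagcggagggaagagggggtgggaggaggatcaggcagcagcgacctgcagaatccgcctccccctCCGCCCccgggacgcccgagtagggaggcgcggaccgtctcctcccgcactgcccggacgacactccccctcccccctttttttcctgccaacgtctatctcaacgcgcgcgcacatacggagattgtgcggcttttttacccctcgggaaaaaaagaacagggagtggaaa
Tgfb2: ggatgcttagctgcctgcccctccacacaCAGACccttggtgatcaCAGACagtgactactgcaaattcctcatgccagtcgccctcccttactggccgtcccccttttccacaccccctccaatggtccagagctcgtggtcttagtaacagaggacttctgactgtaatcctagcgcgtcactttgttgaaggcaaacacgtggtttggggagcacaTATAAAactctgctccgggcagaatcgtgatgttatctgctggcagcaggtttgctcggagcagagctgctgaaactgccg
Tmeff2: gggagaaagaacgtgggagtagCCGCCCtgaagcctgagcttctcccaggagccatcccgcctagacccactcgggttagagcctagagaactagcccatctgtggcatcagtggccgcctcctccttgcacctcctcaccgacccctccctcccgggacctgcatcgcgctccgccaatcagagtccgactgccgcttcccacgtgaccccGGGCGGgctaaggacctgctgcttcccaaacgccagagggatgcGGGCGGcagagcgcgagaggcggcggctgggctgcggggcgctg

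The Inhbb window held 64.3% G and C with 1 GGGCGG match and neither of the other motifs. The Tgfb2 window held 54.3% G and C, with 2 CAGAC matches and 1 TATAAA match. The Tmeff2 window held 67.7% G and C and 3 GGGCGG matches. Over 2124 promoter windows of genes in the table the median was 57.3% G and C, and 46.2% held CAGAC, 10.6% TATAAA and 47.7% GGGCGG. These matches describe the letters of the windows and were not tied to any difference between genotypes.

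Inhbb, the beta B subunit that forms activin B, was the member with the largest difference between genotypes. It had 8, 37 and 22 reads in the 3 KO replicates, against 3, 2 and 1 reads in the WT replicates. On the CPM scale KO stood at 2.29, 5.84 and 4.55 and WT at 0.568, 0.497 and 0.180. Every KO replicate lay above every WT replicate, and the WT replicates were at or under the floor of 3 counts. The separate libraries, which are parts of these sums, held 6 and 2, 23 and 14, and 10 and 12 reads in KO. In WT they held 2 and 1, 1 and 1, and 0 and 1 reads. In raw reads they touched, with 2 in a library of KO replicate 1 and 2 in a library of WT replicate 1. Summed over replicates, KO held 67 reads and WT 6 reads. Scaled for library size, this is a ratio of 11.3 with an exact 95% interval of 4.93 to 31.9 that covers counting error only. Such intervals pool reads over replicates and also excluded 1 in members whose genotypes overlapped. These were Inha (0.168 to 0.835), Tgfb2 (0.536 to 0.83), Bmpr2 (0.795 to 0.991), Tmeff2 (1.06 to 1.07) and Tgfbrap1 (1.04 to 1.11). For Fstl3 the interval was 0.635 to 1.16. The fitted log2 fold change of Inhbb, KO over WT, was 3.30 ± 0.95 (SE), and its size depends on the small counts in WT. Inhbb passed the filter on low counts only through the KO replicates. The gene lies at chr1:119415463-119422248 in mm10 on the minus strand, has 2 exons, and overlaps no other gene in GENCODE M21. In these bulk samples more Inhbb RNA per cell and more cells that make it cannot be told apart.

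Marker lists of cell types were read beside Inhbb. The 2 mature oligodendrocyte genes given above, of 19 listed, summed higher in every KO replicate than in every WT replicate. Each of these 2 genes also did so alone, as did 4.51% of all tested genes. The lists were chosen with earlier results of these data known. The other lists overlapped between genotypes. Among glia, the 3 astrocyte genes summed to 484 to 1099 CPM in KO and 356 to 797 CPM in WT. The 2 progenitor genes, Tnr and Neu4, summed to 12.3 to 95.4 CPM in KO and 0.497 to 36.6 CPM in WT. The 2 genes of microglia and macrophages, Ptprc and Fcer1g, summed to 47.0 to 242 CPM in KO and 41.5 to 85.2 CPM in WT. The sums of progenitors and of microglia and macrophages were highest in KO replicate 2, which also had the most Inhbb reads. Among KO replicates the progenitor sum had the same order as Inhbb, at 12.3, 95.4 and 60.6 CPM in replicates 1, 2 and 3. The microglia and macrophage sum did not, at 134, 242 and 47.0 CPM. In KO replicate 3, with 22 Inhbb reads, the microglia and macrophage sum was 47.0 CPM, below WT replicates 1 (85.2 CPM) and 3 (58.5 CPM). In KO replicate 1, which had the fewest Inhbb reads in KO, 8, the progenitor sum lay below the same WT replicates (35 and 36.6 CPM). The progenitor sums of KO replicates 2 and 3 lay above every WT replicate. Of the mural and fibroblast list 7 of 14 genes were in the table, and they summed to 277 to 671 CPM in KO and 107 to 499 CPM in WT. The 2 neuronal genes, Scg2 and Syt1, summed to 10.6 to 46.7 CPM in KO and 7.01 to 247 CPM in WT. Kcnj13 of the choroid plexus stood at 1.58 to 16.3 CPM in KO and 4.97 to 131 CPM in WT. Single replicates set the upper end in neurons (WT replicate 3) and choroid plexus (WT replicate 1), and the endothelial list was not analysed here. Their part in the Inhbb difference was not tested.

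**Figure D1:**
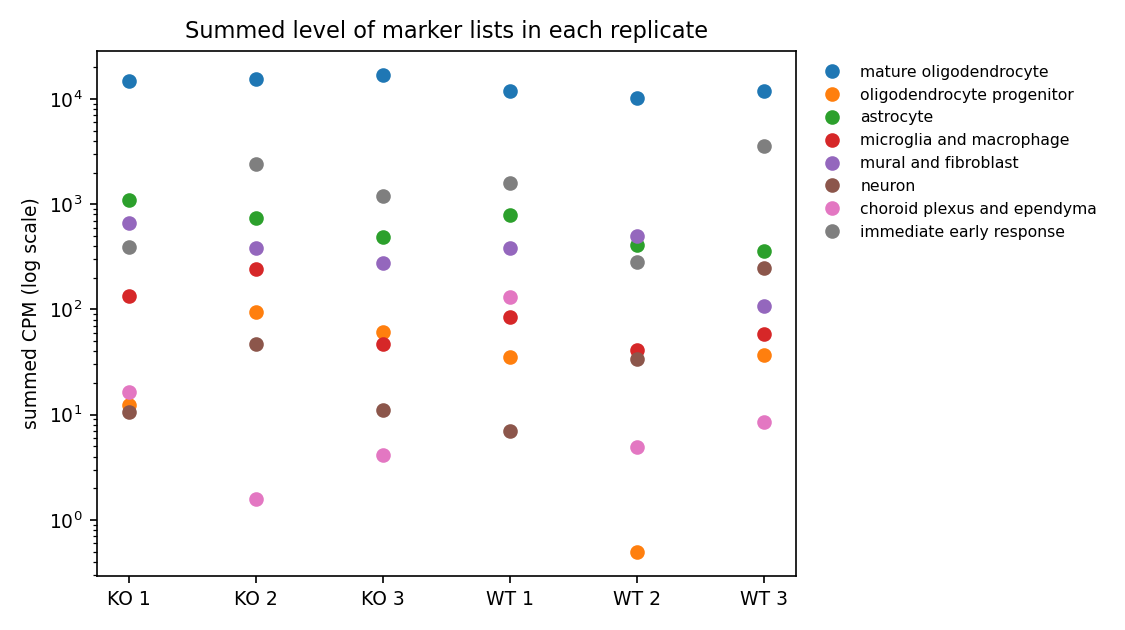
Summed CPM of each marker list (vertical axis, log scale) in each replicate (horizontal axis, KO on the left). The 2 mature oligodendrocyte genes sum to 14841 to 17096 CPM in KO and 10318 to 11903 CPM in WT. The neuronal sum is highest in WT replicate 3 at 247 CPM.

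Inha, the alpha subunit that pairs with a beta subunit to make inhibin, stood above the floor of 3 counts only in KO replicate 1 and WT replicate 3. It had 10, 0 and 0 reads in KO replicates 1, 2 and 3, against 1, 1 and 24 reads in the WT replicates. KO replicate 1 and WT replicate 3 thus held nearly all its reads, and the genotypes overlapped. Both libraries of those replicates contributed, with 7 and 3 reads in KO replicate 1 and 12 and 12 reads in WT replicate 3. In the replicates with no read, the floor of 3 counts allows up to 0.474 CPM in KO replicate 2 and 0.621 CPM in KO replicate 3. The neuronal sum was 10.6 CPM in KO replicate 1 and 247 CPM in WT replicate 3, the highest of the 6 replicates. Inha did not pass the filter, and the fit without a filter gave a log2 fold change of -0.81 ± 1.85 (SE). That value rests on single replicates, since it was -6.08 without KO replicate 1 and 1.92 without WT replicate 3. Inha lies at chr1:75507077-75510366 on the plus strand.

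**Figure D2:**
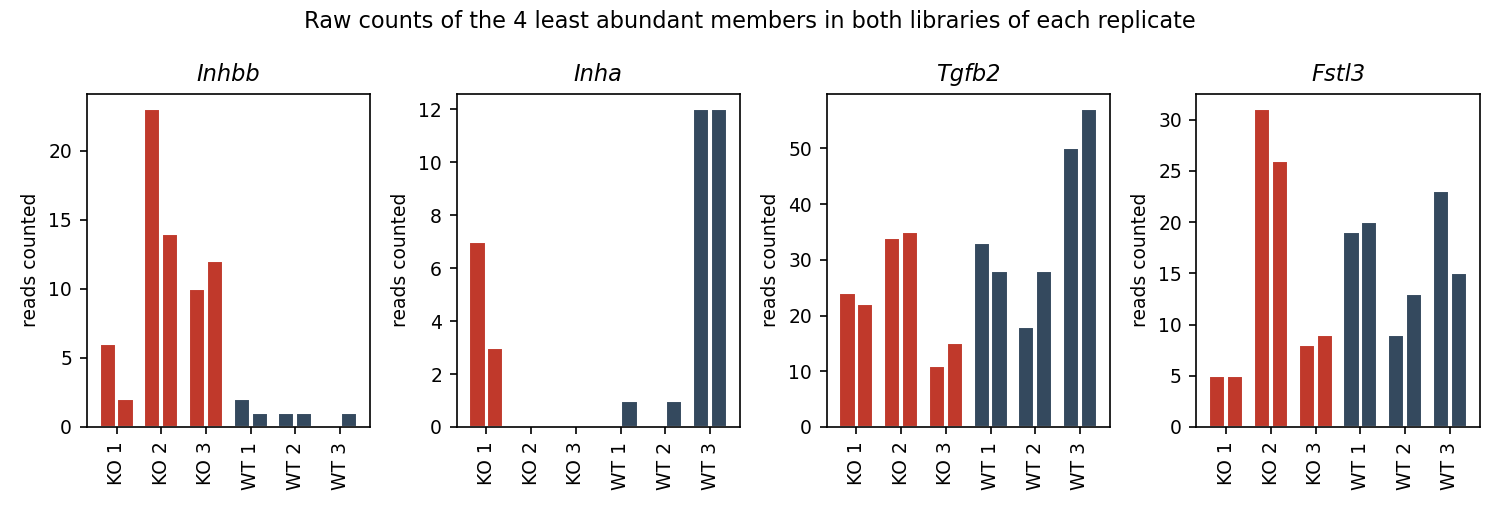
Raw reads (vertical axis) of Inhbb, Inha, Tgfb2 and Fstl3 in each replicate, KO in red on the left and WT in dark blue, with 1 bar for each of the 2 libraries. Inhbb reaches 23 reads in KO and at most 2 in WT, and all but 2 of the Inha reads stand in KO replicate 1 and WT replicate 3.

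Tgfb2, a ligand of the TGF-beta subfamily that is secreted in a latent form, stood at 13.2, 10.9 and 5.38 CPM in KO and 11.6, 11.4 and 19.3 CPM in WT. The genotypes overlapped, with the lowest value in KO replicate 3 and the highest in WT replicate 3. The means were 9.81 ± 4.0 CPM in KO and 14.1 ± 4.49 CPM in WT (SD, n = 3 each), and the log2 fold change was -0.53 ± 0.53 (SE). It was -0.24 without KO replicate 3 and -0.23 without WT replicate 3. These values rest on 26 to 69 reads per KO replicate and 46 to 107 per WT replicate. Tgfb2 lies at chr1:186622787-186709697 on the minus strand and shares 124 exon bases with an antisense transcript, Gm29491. No source used here says if reads were counted by strand, so reads of such pairs may be mixed.

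Bmpr2, the type II receptor kinase for bone morphogenetic proteins, stood at 41.7, 32.8 and 52.8 CPM in KO and 76.7, 42.0 and 21.8 CPM in WT. WT replicates 1 and 3 held the highest and the lowest of the 6 values, so all KO values lay within the WT range. The means were 42.5 ± 9.98 CPM in KO and 46.8 ± 27.8 CPM in WT (SD, n = 3 each). The log2 fold change was -0.15 ± 0.44 (SE), and 0.41 without WT replicate 1. Bmpr2 lies at chr1:59764279-59878081 on the plus strand.

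Fstl3, a secreted follistatin-like protein that binds activins and myostatin, stood at 2.86, 9.0 and 3.52 CPM in KO and 7.39, 5.46 and 6.84 CPM in WT. KO replicate 2 was the highest of all replicates and the other KO replicates were the lowest. The means were 5.13 ± 3.37 CPM in KO and 6.56 ± 0.992 CPM in WT (SD, n = 3 each). The log2 fold change was -0.34 ± 0.69 (SE), and -1.03 without KO replicate 2. The same replicate had the most Inhbb and the highest microglia and macrophage sum. KO replicate 1 had the lowest Fstl3 value and a microglia and macrophage sum of 134 CPM, above every WT replicate. The progenitor sums in KO, 12.3, 95.4 and 60.6 CPM, had the order of the Fstl3 values. Yet KO replicate 3 lay above every WT replicate in progenitor sum and below every WT replicate in Fstl3. The part of these cell types in Fstl3 was not tested. Fstl3 lies at chr10:79777274-79782630 on the plus strand and shares 1157 exon bases with Prss57 on the opposite strand. Prss57 itself had 7, 9 and 0 reads in KO and 0, 0 and 1 in WT, so an exchange of reads between these genes would bear on the Fstl3 values, and this was not tested.

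Tmeff2 encodes a transmembrane protein with follistatin-like and EGF-like domains. It was the third most abundant of the 2398 genes analysed, at 18757, 19915 and 19935 CPM in KO and 17119, 22381 and 17014 CPM in WT. The KO values lay close together and within the range of the WT values. The means were 19535 ± 674 CPM in KO and 18838 ± 3069 CPM in WT (SD, n = 3 each), with a log2 fold change of 0.05 ± 0.14 (SE). The coefficient of variation between replicates was 3.45% in KO and 16.3% in WT, and whether the spread differs between genotypes was not tested. Each replicate counted between 65596 and 126116 Tmeff2 reads, so counting error is a small part of this spread. Tmeff2 lies at chr1:50900683-51187270 on the plus strand, and its exons share no base with another GENCODE M21 gene.

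Tgfbrap1, first described as a protein that associates with TGF-beta receptors and also a subunit of the CORVET complex that tethers early endosomes, stood at 441, 492 and 497 CPM in KO and 413, 348 and 557 CPM in WT. The KO values again lay within the WT range. The means were 477 ± 31.2 CPM in KO and 439 ± 107 CPM in WT (SD, n = 3 each), with a log2 fold change of 0.12 ± 0.17 (SE). It lies at chr1:43047200-43098712 on the minus strand and shares 164 and 142 exon bases with the antisense transcripts Gm28782 and 8430432A02Rik.

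**Figure D3:**
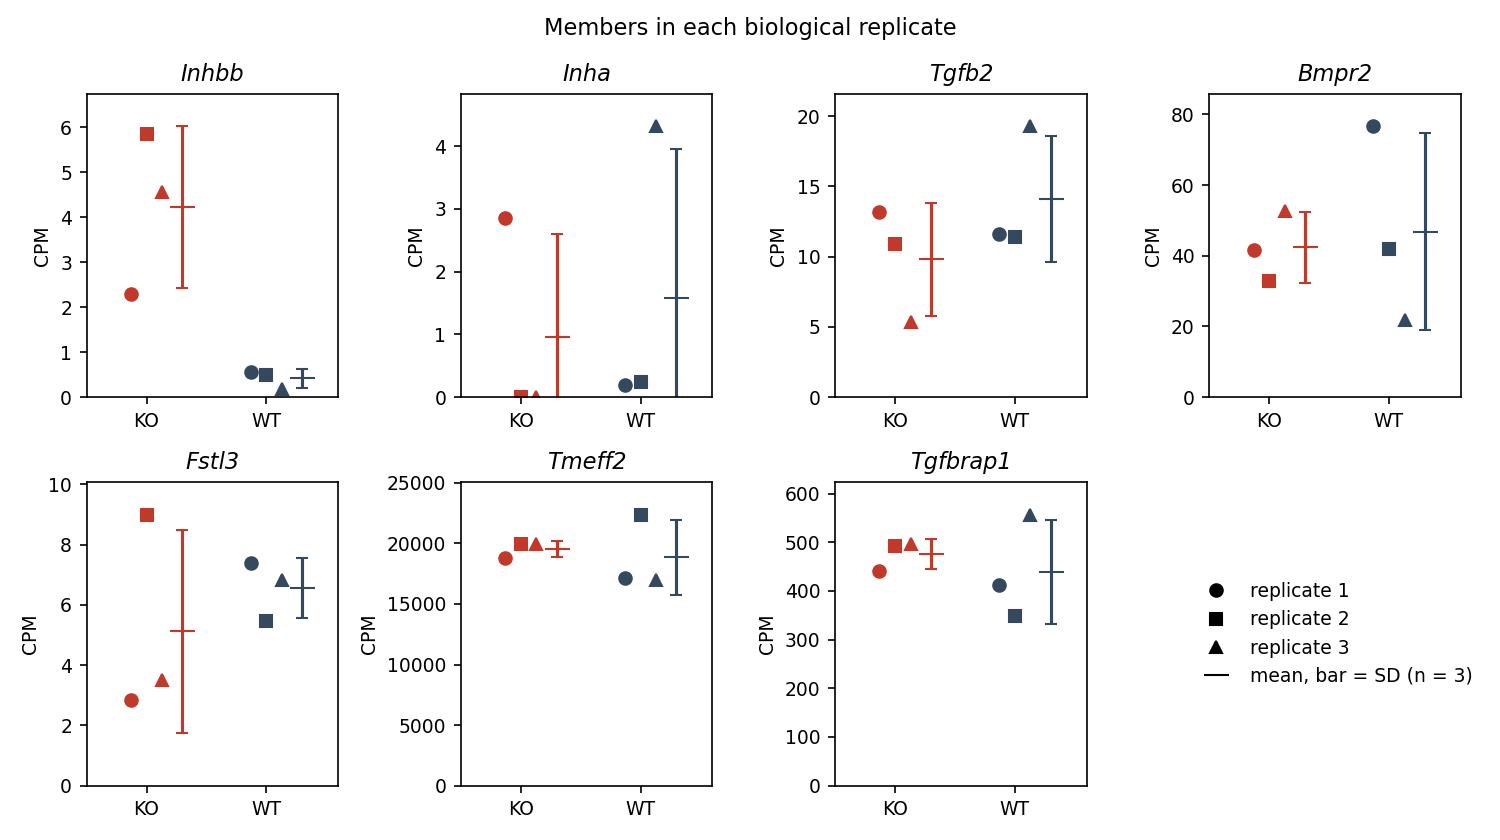
CPM (vertical axis, from 0) of each member in the KO and WT replicates, with the marker shape giving the replicate and the bar the mean and SD (n = 3). The Inhbb values of KO lie above those of WT, and in the other 6 members the genotypes overlap. SD bars that would pass below 0 end at the axis.

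Set per length of exons, the members spanned a wide range of levels. Tmeff2 stood at 2797 to 2972 CPM per kb in KO and 2537 to 3337 CPM per kb in WT. Tgfbrap1 followed at 40.2 to 45.3 CPM per kb in KO and 31.7 to 50.8 CPM per kb in WT. Bmpr2, Fstl3 and Tgfb2 averaged 2.48, 2.39 and 2.06 CPM per kb over the 6 replicates, and these neighbours in the order overlapped in their replicates. Inha averaged 0.861 CPM per kb, carried by 2 replicates. Inhbb averaged 0.993 CPM per kb in KO and 0.0975 CPM per kb in WT. In every WT replicate it lay below Tgfb2 and Fstl3 of the same replicate. The same held in KO replicate 1, at 0.538 against 2.27 for Tgfb2 and 1.17 for Fstl3. It also held in KO replicate 2, at 1.37 against 1.88 and 3.68 CPM per kb. In KO replicate 3 Inhbb stood at 1.07 CPM per kb, above Tgfb2 (0.929) and below Fstl3 (1.44). The length is that of all annotated exons in GENCODE M21, from 1475 bases for Inha to 17983 bases for Bmpr2, and exons that these cells do not use make a level per length too low.

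**Figure D4:**
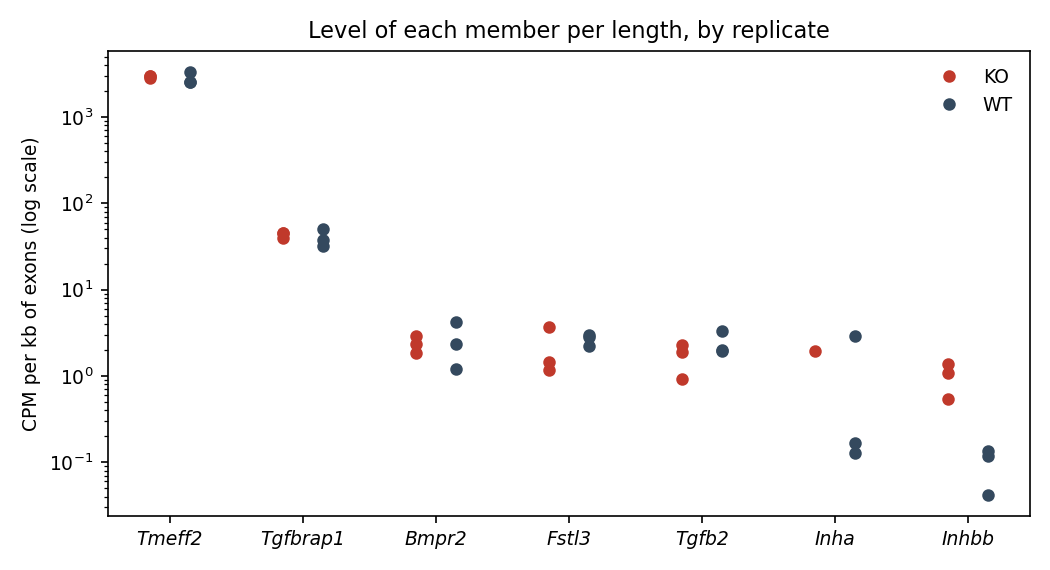
CPM per kb of exons (vertical axis, log scale) for each member and replicate, KO in red left of WT in dark blue. Tmeff2 lies between 2537 and 3337, Tgfbrap1 between 31.7 and 50.8, and every other member at or below 4.27. The KO replicates of Inha with 0 reads cannot be drawn on a log axis.

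Across the table, the quasi-likelihood test of edgeR (Benjamini-Hochberg adjusted) called 0 of 1484 tested genes higher and 0 lower in KO at the 0.05 level, 0% in each direction, with 59 genes at an unadjusted p under 0.05. Of the 7 members 6 passed the filter, and 0 of these were called. DESeq2 called 7 genes, none of them a member. KO lay above WT in every replicate in 67 of the 1484 genes, 4.51%, and below in 58, 3.91%, while among the members it lay above in Inhbb and below in none. The members' contrast was known when they were chosen, so nothing is read from these counts. The spread of the members followed their level. The biological coefficient of variation was 0.133 for Tmeff2 and 0.177 for Tgfbrap1, and from 0.422 for Bmpr2 to 0.594 for Inhbb in the other tested members. Its median was 0.223 over all tested genes and 0.618 over those with a mean count under 100.

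Other genes of the family were looked up from lists of ligands, receptors, antagonists, intracellular mediators, target genes and the CORVET and HOPS complexes. Of 117 genes 17 were in the table, none of them from the CORVET and HOPS list. This limits the view of the family, and the other genes were not analysed here. Of these 17, 12 were tested, and edgeR called 0 higher and 0 lower. Among the 12 were 6 target genes and no receptor. Their median log2 fold change was 0.25, with 8 of 12 above 0, where the median of all tested genes was -0.006. Fitted values are given for the genes that follow, none of which passed the test (edgeR adjusted p = 0.994 for each).

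Among ligands, the Nodal antagonist Lefty1 stood at 132 ± 59.4 CPM in KO and 122 ± 10.8 CPM in WT (SD, n = 3 each), and Lefty2 at 26.8 ± 14.6 CPM in KO and 21.6 ± 3.65 CPM in WT. The sequences of both Lefty genes are close, so reads could have been split between them. Mstn, Nodal, Amh and the coreceptor gene Cfc1 had 0 reads in all libraries. Of the antagonists, Dcn, the proteoglycan decorin that binds TGF-beta, stood at 143 ± 35.2 CPM in KO and 106 ± 69.6 CPM in WT, and Fmod, fibromodulin, at 8.53 ± 1.07 CPM in KO and 11.2 ± 4.06 CPM in WT. Dcn is also in the mural and fibroblast list.

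The 2 intracellular mediators lay lower in each KO replicate than in each WT replicate. Tab2, an adaptor of the kinase TAK1, had 349.7, 331 and 317 CPM in KO and 417, 378 and 371 CPM in WT, a log2 fold change of -0.23 ± 0.11 (SE). Cited2, a transcriptional coregulator that can act with Smads, had 46.3, 30.2 and 36.6 CPM in KO and 92.8, 52.2 and 51.1 CPM in WT, a log2 fold change of -0.80 ± 0.32 (SE). Against these, 3.91% of all tested genes lay lower in each KO replicate.

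Of 6 target genes tested, 5 had a log2 fold change above 0 and the median was 0.53. Col3a1, a fibrillar collagen, stood at 90.6 ± 34.6 CPM in KO and 79.1 ± 55.4 CPM in WT (SD, n = 3 each). Serpine2, a protease inhibitor, stood at 111 ± 36 CPM in KO and 71.4 ± 33.6 CPM in WT (SD, n = 3 each). The genotypes overlapped in both. Fn1, fibronectin, stood at 171 ± 139.6 CPM in KO and 111 ± 79.5 CPM in WT, with its highest value, 331 CPM, in KO replicate 1. Ccn2, a matricellular protein, stood at 38.9 ± 25.3 CPM in KO and 17.2 ± 9.89 CPM in WT, with the largest log2 fold change of the list, 1.17 ± 0.58 (SE), and overlapping genotypes. Col5a2, a fibrillar collagen, stood at 29.5, 44.1 and 26.9 CPM in KO and 26.3, 24.1 and 23.4 CPM in WT. Every KO value of Col5a2 lay above every WT value, as in 4.51% of all tested genes. Gadd45b, a stress-inducible gene, stood at 222 ± 89.0 CPM in KO and 286 ± 157 CPM in WT. Fn1, Col3a1 and Col5a2 are also in the mural and fibroblast list, whose sum was highest in KO replicate 1 at 671 CPM. The immediate early list summed to 395 to 2419 CPM in KO and 285 to 3564 CPM in WT. The part of these cell types and of this response in the target genes was not tested.

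**Figure D5:**
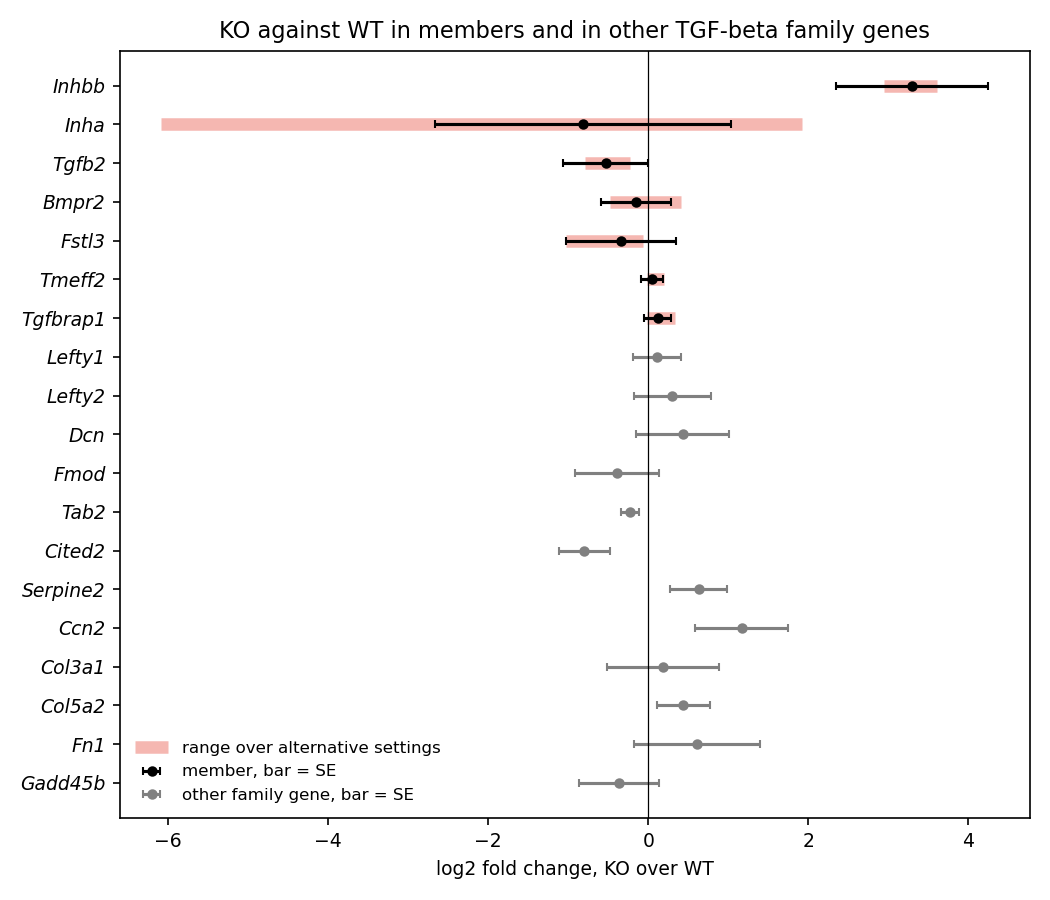
Log2 fold change, KO over WT (horizontal axis), with SE bars, for the 7 members (black) and 12 other tested family genes (grey). Pink bands give each member's range over the alternative settings, from 2.94 to 3.61 for Inhbb and from -6.08 to 1.92 for Inha.

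For each tested member the genes with the most similar profile over the 6 replicates were taken from the 1484 tested, by Pearson's r of log2 CPM. For Inhbb they included Adamts4 (r = 0.950) and Cd244a (0.949), which like Inhbb had higher means in KO than in WT, and after removal of the genotype means r was 0.462 and 0.640. For Tmeff2 the closest were Gm15834, Zfp873 and Hdac2, with r from 0.937 to 0.952, and for Tgfb2 Il1r1, 2810442N19Rik and Gm19705, with r from 0.961 to 0.993. Bmpr2 was most like Adat2, Btbd2 and Mettl21a (r from 0.960 to 0.979), Fstl3 like Lrriq1, Nabp1 and Rrp15 (0.938 to 0.968), and Tgfbrap1 like Slc4a3, Nav3 and Pappa2 (0.971 to 0.990). Among the members themselves r ranged from -0.666, between Inhbb and Tgfb2, to 0.365, between Tgfb2 and Fstl3. These values describe 6 replicates of 2 genotypes and, for the similar genes, are the highest of many.

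The nearest tested gene on each side of each member was looked up, passing over genes that were not tested, and none was called. Those of Inhbb and Tmeff2 are given here. Next to Inhbb, Ralb lies 48.1 kb away and stood at 196 CPM in KO and 168 CPM in WT, with a log2 fold change of 0.22 ± 0.14 (SE). On the other side Gli2, a transcription factor of the Hedgehog pathway 361 kb away, stood at 3.93 CPM in KO and 1.54 CPM in WT, with 1.33 ± 0.86. Next to Tmeff2, Cavin2 lies 102 kb away and stood at 287 CPM in KO and 373 CPM in WT, with -0.38 ± 0.19. On its other side Slc39a10 lies 3975 kb away and stood at 97.5 CPM in KO and 107 CPM in WT, with -0.13 ± 0.23. The edgeR adjusted p was 0.994 for each of these neighbours.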

How the data were processed

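RNA from sorted oligodendrocytes was sequenced as single ends, per the labels' protocols. The authors deposited raw read counts per gene and library. The submitters' processing notes name build mm10 and, among tools, HISAT2, featureCounts, fastp, FastQC, SAMtools 1.4.1, CASAVA 1.8.2 and DESeq2 1.38.1. For counting settings, strand use and annotation, nothing is given in the sources used here. The table held 2398 complete lines, and 1 that stopped early was left out. Symbols matched 2226 identifiers in a RefSeq table on GRCm38 (mm10).

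Both libraries of a biological replicate were summed and count as 1 sample. Between them, chi-square per degree of freedom over genes was 1.00 to 1.06 (p from 0.0594 to 0.486). The contrast of KO with WT used edgeR 4.0.16 (R 4.3.3), TMM factors, filterByExpr with a minimum count of 10, and a robust quasi-likelihood fit tested on simulated data, two-sided, with Benjamini-Hochberg adjustment. SE is the size of the log2 fold change over the root of its F statistic. The edgeR p-values set the difference between genotypes against the spread between replicates, and those of the chi-square compare the libraries of a replicate. A single-gene exact permutation test of 3 against 3 cannot go below p = 0.1. Members, lists and tests were chosen with earlier results of these data known. Named are the members, up to 4 tested genes by mean CPM of each list, and the 3 most similar genes per member, of which 1 is not reported here. Ccn2 and Col5a2, chosen after their values were seen, genes with 0 reads, Prss57, the markers and the chromosomal neighbours were named in addition. Similarity used log2 CPM with a prior count of 2.

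As alternatives, DESeq2 1.42.0, limma-voom 3.58.1, a replicate block, RLE and upper-quartile factors, 2 other filters, each library alone, and leaving out each replicate were tried.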

Additional observations from a re-analysis of the deposited data

How the results depend on the processing

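The count of 0 called genes held under other size factors, without a filter, with a mean count of at least 50, with limma-voom, with either library of each replicate alone and without each replicate (34 to 86 genes at an unadjusted p under 0.05), while DESeq2 called 7, 6 of them higher in KO. The cause was not tested. The replicate block also gave 0 called genes, with 49 at an unadjusted p under 0.05. Same-numbered replicates had correlated deviations of -0.0032, -0.304 and 0.139 across genes, which does not mark the numbers as pairs. The 0 calls among other family genes held under all of these settings.

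The log2 fold change of Inhbb ranged from 2.94 to 3.61, and that of Tgfb2 from -0.79 to -0.23, under the settings that kept them. Without single replicates Fstl3 ranged from -1.03 to -0.07 and Inha from -6.08 to 1.92. Signs changed for Bmpr2 (0.02 without KO replicate 2, 0.41 without WT replicate 1), Tmeff2 (-0.01 without WT replicate 1 or 3) and Tgfbrap1 (-0.02 without WT replicate 2), and Bmpr2 came to 0.00 with limma-voom. Inhbb, Inha and Fstl3 are under the mean count of 50, so that filter gave no value for them, and limma-voom gave none for Inha. Low counts limit these 3 genes most.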
